A study of Mus musculus with 10 samples.

Results

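The NF-κB subunits, their inhibitors, the activating kinase Ikbkb and a pair of feedback genes were followed in obstructed mouse kidneys treated with PBS or dimethyl malonate (DMM). The members were taken by gene symbol from the deposited count table, which gave 10 of 54532 genes: Rela, Relb, Rel, Nfkb1, Nfkb2, Ikbkb, Nfkbia, Nfkbiz, Tnfaip3 and Birc3. Kidneys came from wild-type (WT) male C57BL/6 mice in which 1 ureter was ligated (unilateral ureteral obstruction, UUO) when they were 8 weeks old, and were taken 14 days later. DMM, an inhibitor of succinate dehydrogenase, was given to 5 mice by intraperitoneal injection of 40 mg/kg every other day, and 5 control mice received PBS. Each mouse gave a single library of bulk kidney RNA. All mice of both groups were obstructed, so that the comparison is of DMM against PBS within UUO and includes no unobstructed kidney. Libraries of PBS-treated kidneys held 16457495 to 18078777 counts in total, and those of DMM-treated kidneys 15722527 to 19475833.

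NF-κB is a family of dimeric transcription factors built from subunits that share the Rel homology domain. In resting cells the dimers are held in the cytoplasm by IκB proteins, and the IKK complex, of which Ikbkb encodes a catalytic subunit, phosphorylates IκB so that it is degraded and the dimers enter the nucleus. There they induce cytokine, adhesion and survival genes together with their own inhibitors, so that transcripts such as Nfkbia and Tnfaip3 are both brakes on the pathway and targets of it; in the obstructed kidney the pathway is known to be active in tubular cells and in infiltrating leukocytes.

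Several libraries stood apart. The group means that were deposited with the counts leave out PBS replicate 3 and DMM replicate 1, which enter them with 0 weight, and no reason for this is given in the sources used here. DMM replicate 1 lay at a root mean square distance of 0.431 in log2 CPM from the PBS-treated kidneys and of 0.777 from the other DMM-treated ones. DMM replicate 2 was also nearer to the PBS-treated kidneys, at 0.573 against 0.640, and DMM replicates 3 and 5 were about as far from both groups, at 0.663 to 0.678. PBS replicate 3 lay at 0.547 from the other PBS-treated kidneys and at 0.642 from the DMM-treated ones. The distances above to DMM-treated kidneys include DMM replicate 4 and were not taken without it. Which group a library lay nearer to may therefore rest on that replicate. DMM replicate 4 was far from both groups, at 1.15 from the PBS-treated and 1.12 from the other DMM-treated kidneys. It had the highest total count, 19475833, but a count above 0 in 20029 genes, against 22898 to 24083 genes in the other 9 libraries. Mitochondrial genes took 5.62% of its counts, against 1.97% to 4.39% elsewhere. Results are therefore given over all 10 libraries, over the 8 libraries with a weight above 0, and, where it matters, without DMM replicate 4.

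Levels are compared between genes in FPKM as deposited, which divides each count by gene length. Nfkbia, which encodes the inhibitor IκBα, had the highest median among the members in PBS-treated kidneys, 52.6 FPKM with a range of 49.2 to 63.6. Rela, the p65 subunit that carries a transactivation domain, followed at a median of 46.6 FPKM with a range of 37.8 to 50.2. These ranges overlapped, although Nfkbia was above Rela in each of the 5 PBS-treated kidneys. Nfkb2, the precursor of p52, had a median level of 33.8 FPKM, and its range did not reach that of Rela or of Birc3. Birc3, the ubiquitin ligase cIAP2, had a median level of 19.99 FPKM. Relb, Nfkbiz and Nfkb1 lay close together with median levels of 16.1, 14.9 and 14.6 FPKM and overlapping ranges. Tnfaip3, the ubiquitin-editing enzyme A20, had a median level of 7.49 FPKM, and its highest library, PBS replicate 5 at 12.5 FPKM, reached into the range of Nfkb1. Ikbkb and Rel were lowest, with median levels of 5.62 and 3.63 FPKM, and held ranks 9 and 10 in each of the 10 libraries. This order rests on the deposited gene lengths, 19078 bp for Ikbkb and 12061 bp for Nfkb1 against 3289 bp for Nfkb2. In CPM, which is not divided by length, Nfkb1 had the highest mean of the members with PBS, at 170. Ikbkb, at 108 CPM, was then close to Nfkb2, at 110 CPM.

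The order of levels was much the same in DMM-treated kidneys, with exchanges between neighbours. Rela was above Nfkbia in DMM replicates 1, 2 and 3, and Nfkbia above Rela in replicates 4 and 5. The median level in FPKM was 43.1 for Rela and 41.2 for Nfkbia in this group, with overlapping ranges. Relb held rank 5 in each PBS-treated kidney and rank 6 in each DMM-treated kidney. In DMM replicates 1, 2, 3 and 5 Nfkbiz stood at rank 5, and in replicate 4 at rank 8. When levels were taken as CPM per kb of the deposited gene length, the order of the medians was the same as in FPKM in both groups. Both scales start from the same counts and gene lengths, so that this is no check of the lengths.

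Differences between groups were tested on counts with edgeR's quasi-likelihood test over all genes that passed a filter on low counts, which all 10 members did. To be called, a gene needed a fold change above 1.5 and, after Benjamini-Hochberg adjustment, a p under 0.05. Over all 10 libraries edgeR called 0 of the 10 members in either direction, against 0% of 16505 tested genes called higher and 0% called lower, and DESeq2 also called 0 members, with 13 genes called higher and 36 lower over the whole table. At an unadjusted p under 0.05 edgeR placed 1 member lower, Nfkbia, against 6.49% of tested genes, and 0 members higher. The same gene was the 1 member whose PBS and DMM values did not overlap, with DMM lower, against 1.16% of tested genes. Of the 10 members, 8 had a log2 fold change below 0, against 47.2% of tested genes, and Ikbkb and Birc3, the other 2, turned below 0 when counts were scaled by library size alone. The median log2 fold change was -0.20 over the members and 0.02 over all tested genes, and that of the members was -0.11 over 9 libraries without DMM replicate 4.

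Over the 8 libraries edgeR again called 0 of the 10 members, against 2.73% of 16550 tested genes called higher and 3.56% called lower, and DESeq2 called 0 as well, with 710 genes called higher and 880 lower over the whole table. In edgeR 452 tested genes rose and 590 fell, a split that became 276 against 700 under library size alone. At an unadjusted p under 0.05 edgeR placed 3 members lower, Relb, Nfkb1 and Nfkbia, against 10.8% of tested genes. In 4 members, Relb, Nfkb1, Nfkbia and Nfkbiz, the DMM values lay below all PBS values, against 10.7% of tested genes. The log2 fold change was below 0 in 8 of 10 members, against 47.6% of tested genes, again with Ikbkb and Birc3 turning below 0 under library size alone. The median log2 fold change was -0.36 over the members and 0.02 over all tested genes. These 8 libraries are part of the 10, so that one set is no independent check of the other. They leave out the DMM library nearest to the PBS-treated kidneys, replicate 1 at 0.431. Also left out is the PBS library nearest to the DMM-treated ones, replicate 3 at 0.642 with DMM replicate 4 included. The share of all tested genes with DMM below all PBS values was 1.16% over 10 libraries and 10.7% over 8. Calls and p-values over the 8 libraries therefore hold only given this choice of libraries.

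**Figure D1:**
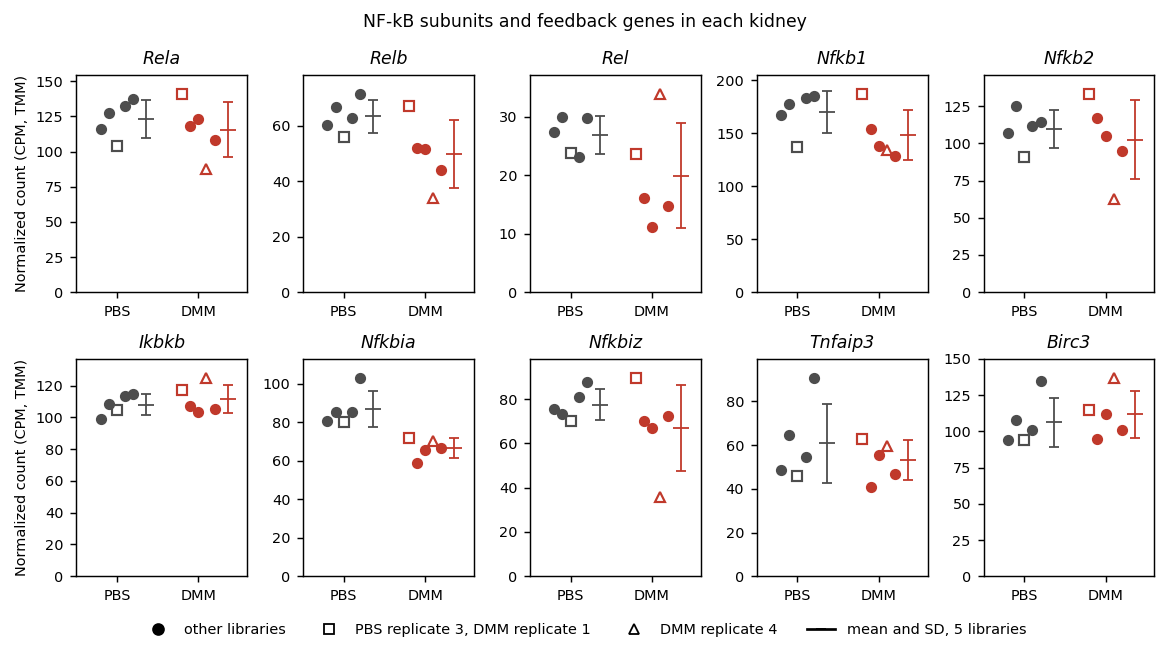
Normalized count (CPM with TMM scaling) of each member on a linear axis from 0, with a point for each kidney, grey for PBS and red for DMM, and the mean with SD over 5 libraries beside them; open squares are PBS replicate 3 and DMM replicate 1, and open triangles DMM replicate 4. Nfkbia is the member in which all DMM points lie below all PBS points, 58.6 to 72.0 against 79.9 to 103 CPM, and in Rel the triangle lies above every other point, at 33.8 CPM.

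Nfkbia, the IκBα gene on chromosome 12 (55489410 to 55492647, minus strand, mm10), separated the groups best of the members over all 10 libraries. Its normalized count was 80.6, 85.5, 79.9, 85.1 and 103 CPM (the count scaled to library size by TMM) in PBS replicates 1 to 5, and 72.0, 58.6, 65.7, 70.2 and 66.6 CPM in DMM replicates 1 to 5. Every DMM-treated kidney, replicates 1 and 4 included, was below every PBS-treated one, and PBS replicate 5 was well above the rest of its group. The group means were 86.8 ± 9.31 CPM (SD, n = 5) with PBS and 66.6 ± 5.15 CPM (SD, n = 5) with DMM. Its log2 fold change was -0.38 (95% interval -0.60 to -0.16), with an unadjusted p of 0.00313 and an adjusted p of 0.378 in edgeR. That adjusted p was the smallest in the table and was shared by 353 genes, so that Nfkbia did not pass over 10 libraries. Over the 8 libraries the log2 fold change was -0.44 with an adjusted p of 0.0538 in edgeR, and the adjusted p ran from 0.00550 to 0.375 over the other settings and each library left out. The other IκB-type member, Nfkbiz, encodes IκBζ, a nuclear protein that is itself induced and acts as a cofactor on secondary NF-κB targets. Its normalized count was between 70.3 and 87.9 CPM in PBS-treated kidneys and between 35.6 and 89.3 CPM in DMM-treated ones. DMM replicate 4 was the lowest and DMM replicate 1 the highest of all 10 libraries, so that the DMM values enclosed the PBS values. For Nfkbiz the log2 fold change was -0.21 with an adjusted p of 0.674 in edgeR over 10 libraries, and -0.37 over 8. When DMM replicate 4 was left out, these values became -0.05 over 9 libraries and -0.19 over 7.

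Relb (chromosome 7, 19606217 to 19629438, minus strand, mm10) encodes the subunit that pairs with p52 in the noncanonical pathway. Its normalized count was 60.2, 66.7, 55.8, 62.8 and 71.3 CPM in PBS replicates 1 to 5, and 67.2, 51.9, 51.6, 34.0 and 44.1 CPM in DMM replicates 1 to 5. DMM replicates 2 to 5 were below every PBS-treated kidney, while DMM replicate 1 lay among the higher PBS values. Relb had a log2 fold change of -0.35 over 10 libraries, with an unadjusted p of 0.0545 and an adjusted p of 0.466 in edgeR. Over the 8 libraries it was -0.52 with an adjusted p of 0.0714 in edgeR, and the adjusted p ran from 0.00699 to 0.273 over those same alternatives.

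Nfkb1 (chromosome 3, 135584655 to 135691547, minus strand, mm10), the precursor of p50, had the same division of libraries in part. Its normalized count was 167, 177, 137, 183 and 185 CPM in PBS replicates 1 to 5, and 187, 154, 137, 134 and 128 CPM in DMM replicates 1 to 5. The groups overlapped over all 10 libraries through PBS replicate 3, which was low, and DMM replicate 1, which was high, and they did not overlap over the other 8. Nfkb1 had a log2 fold change of -0.20 over 10 libraries, with an adjusted p of 0.564 in edgeR, and of -0.36 over 8, with an adjusted p of 0.0693, where the adjusted p ran from 0.00868 to 0.480 over those alternatives.

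Rel (chromosome 11, 23736847 to 23770970, minus strand, mm10) encodes c-Rel, a subunit known mainly from lymphoid and myeloid cells. Its normalized count was 27.3, 30.0, 23.7, 23.1 and 29.8 CPM in PBS replicates 1 to 5, and 23.6, 16.1, 11.2, 33.8 and 14.8 CPM in DMM replicates 1 to 5. DMM replicates 2, 3 and 5 were below every PBS-treated kidney, and DMM replicate 4 was the highest library of both groups. For Rel the log2 fold change was -0.43 with an adjusted p of 0.541 in edgeR over 10 libraries, and -0.54 with an adjusted p of 0.364 over 8. When DMM replicate 3 was left out, the log2 fold change was -0.28 over the remaining 9 libraries and -0.36 within the set of 8. Without DMM replicate 4 the log2 fold change was -0.71 over the remaining 9 libraries (adjusted p = 0.256, edgeR) and -0.97 over the remaining 7 (adjusted p = 0.00165, edgeR). Rel was thus called lower over those 7 libraries, 14.3 ± 2.58 CPM (SD, n = 3) against 28.1 ± 3.25 CPM (SD, n = 4). Over the 8 libraries and every alternative to them its adjusted p ran from 0.00165 to 0.640, so that the call rests on leaving out DMM replicate 4. The set of 7 was chosen after the data were seen.

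Over the same 7 libraries Rel was the 1 member called by edgeR, against 7.61% of 16828 tested genes called lower and 6.71% called higher. Without the fold threshold, an adjusted p under 0.05 placed 0 members lower over 10, 9 or 8 libraries. Over these 7 it placed 4 lower, Rel, Relb, Nfkb1 and Nfkbia, against 13.8% of tested genes. In this set Relb had a log2 fold change of -0.41 (adjusted p = 0.00699, edgeR), Nfkb1 of -0.35 (adjusted p = 0.00868) and Nfkbia of -0.48 (adjusted p = 0.00550), each under a 1.5-fold change. The DMM values lay below all PBS values in 5 of the 10 members over these libraries, the same 4 and Nfkbiz, against 18.2% of tested genes.

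Rela and Nfkb2, the remaining subunits, both lie on chromosome 19 and did not pass in any set of libraries. Rela was between 104 and 137 CPM in PBS-treated kidneys and between 87.8 and 141 CPM in DMM-treated ones, with DMM replicate 4 lowest and DMM replicate 1 highest. Its log2 fold change was -0.09 over 10 libraries and -0.23 over 8, with adjusted p-values of 0.794 and 0.353 in edgeR, and without DMM replicate 4 it was -0.0079 over 9 and -0.14 over 7. Nfkb2 was between 90.7 and 125 CPM with PBS and between 62.8 and 133 CPM with DMM, with the same libraries at either end. The log2 fold change of Nfkb2 was -0.10 over 10 libraries and 0.04 over 9 without DMM replicate 4, whereas it was -0.27 over 8 libraries and -0.11 over 7 without that replicate.

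Ikbkb, the IKKβ kinase gene, varied least of the members. It was between 99.2 and 115 CPM in PBS-treated kidneys and between 103 and 125 CPM in DMM-treated ones, with DMM replicate 4 highest. The log2 fold change was 0.05 over 10 libraries, with a 95% interval of -0.16 to 0.25, and 0.02 over 8, and without DMM replicate 4 it was 0.0033 over 9 and -0.05 over 7. The SD of its log2 CPM between mice was 0.09 with PBS and 0.11 with DMM, against 0.18 and 0.62 for Rel.

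The feedback genes Tnfaip3 and Birc3 overlapped between groups throughout. Tnfaip3, whose product A20 removes activating ubiquitin chains upstream of IKK, was between 46.0 and 90.5 CPM with PBS and between 41.0 and 62.7 CPM with DMM. PBS replicate 5 was the highest library, and without it the log2 fold change over the remaining 9 libraries was 0.0012, against -0.20 over all 10 (adjusted p = 0.691, edgeR). Over the 8 libraries the log2 fold change of Tnfaip3 was -0.35 (adjusted p = 0.379, edgeR), and -0.15 when PBS replicate 5 was left out of them. Over the 7 libraries without DMM replicate 4 it was -0.43 and was not called. Birc3 was between 93.9 and 135 CPM with PBS and between 94.5 and 137 CPM with DMM. Its log2 fold change was 0.07 over 10 libraries and 0.02 over 8, with adjusted p-values of 0.842 and 0.958 in edgeR, and it turned to -0.01 over 9 libraries without DMM replicate 4. PBS replicate 5 was the highest PBS-treated kidney for 8 of the 10 members, all but Rel and Nfkb2.

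**Figure D2:**
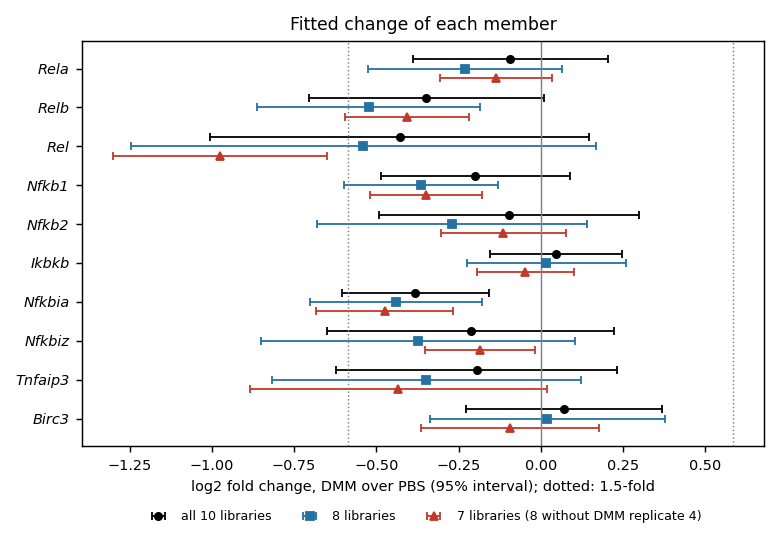
Log2 fold change of DMM over PBS with its 95% interval for each member, over all 10 libraries (black circles), the 8 libraries (blue squares) and 7 libraries without DMM replicate 4 (red triangles), with dotted lines at a 1.5-fold change. The interval of Nfkbia lies below 0 in all 3 sets, and Rel over 7 libraries, at -0.97, is the point whose interval lies wholly beyond the dotted line.

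The balance between subunits was followed as the difference of their log2 CPM within a library, without a test. Relb minus Rela was -0.96 ± 0.07 (SD, n = 5) in PBS-treated kidneys and -1.23 ± 0.11 (SD, n = 5) in DMM-treated kidneys. It ran from -0.89 to -1.07 with PBS and from -1.06 to -1.37 with DMM, so that the groups met only at PBS replicate 4 and DMM replicate 1. Nfkbia minus Rela was between -0.37 and -0.64 in PBS-treated kidneys, and it was between -0.70 and -1.01 in DMM-treated kidneys other than replicate 4, which stood at -0.32. Nfkb2 minus Nfkb1 was -0.50 to -0.71 with PBS and -0.39 to -0.49 with DMM, again leaving aside replicate 4 at -1.09. Rel minus Rela was -2.08 to -2.51 with PBS, -2.57 to -3.45 in DMM replicates 1, 2, 3 and 5, and -1.37 in DMM replicate 4. In each of these last 3 differences DMM replicate 4 lay on the far side of the PBS values from the other DMM-treated kidneys.

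For each member the genes with the most similar pattern over the 10 libraries were found by the root mean square difference of their log2 CPM, each taken relative to its own mean, among 15435 genes with a mean of at least 1 CPM. Rela was nearest to Mvp, at 0.0437, and Arhgdia, at 0.0445. Relb was nearest to Cotl1 (0.0632) and Prkd2 (0.0719), and Nfkb1 to Gusb (0.0453) and Colgalt1 (0.0480). Nfkb2 was nearest to Bicra (0.0663) and Col4a2 (0.0841). Rel had no gene as near, with Lrriq1 at 0.130 and Tnik at 0.139, but its own root mean square variation was the largest of the members, 0.485. Ikbkb was nearest to Tmed2 (0.0287) and Ubap2l (0.0300), and its own root mean square variation over the libraries was 0.0927. Nfkbia was nearest to Trmo (0.0837) and Xkr8 (0.0940), and Nfkbiz to Lfng (0.0696) and Cyp20a1 (0.0755). Tnfaip3 stood farthest from its nearest genes, S1pr4 at 0.176 and Suv39h1 at 0.177. Birc3 was nearest to its paralog Birc2 (0.0924) and to Klf6 (0.0966), and since the handling of reads that align to several genes is not given in the sources used here, counts of Birc3 and Birc2 are uncertain to that extent.

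Other genes of the pathway were grouped in 6 lists by role, which held 100 genes, of which 97 were tested. Over all 10 libraries edgeR called 0 of the 97. With a fold change above 1.5 and an unadjusted p under 0.05 it placed 17 lower and 0 higher, against 4.11% of all tested genes lower and 1.91% higher, and the median log2 fold change was -0.16 against 0.02 over all tested genes. Over 9 libraries without DMM replicate 4 the median was -0.10, against 0.002 over all tested genes. Over the 8 libraries 16 were called lower and 2 higher, against 3.56% and 2.73% of all tested genes, with a median of -0.24 against 0.02. Without DMM replicate 4, over 7 libraries, 28 were called lower and 3 higher, against 7.61% and 6.71% of all tested genes. The counts given below for each list are to be read against these same shares for 8 and for 7 libraries.

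Among 6 inhibitors and IκB-like proteins other than the members, Nfkbie was called lower over the 8 libraries and the rest were not called, with a median log2 fold change of -0.42. Nfkbie encodes IκBε, a further inhibitor that NF-κB induces. Its normalized count was 57.4, 61.6, 46.2, 61.8 and 71.3 CPM in PBS replicates 1 to 5, and 60.8, 38.9, 33.3, 30.7 and 32.2 CPM in DMM replicates 1 to 5. DMM replicates 2 to 5 were below every PBS-treated kidney and DMM replicate 1 was among them. The log2 fold change of Nfkbie was -0.61 over 10 libraries (adjusted p = 0.385, edgeR) and -0.90 over 8 (adjusted p = 0.00405). Nfkbid, at -0.73, and Bcl3, at -0.38, had log2 fold changes over the 8 libraries that were not called.

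Of 13 genes of the IKK complex and kinases upstream of it, 2 were called lower and 1 higher over the 8 libraries, and the median log2 fold change was 0.07, which turned to -0.04 without DMM replicate 4. Ikbke, an IKK-related kinase that acts in interferon induction, had a log2 fold change of -0.98 (adjusted p = 0.0164, edgeR), and Ripk2, the kinase downstream of NOD receptors, of -0.84 (adjusted p = 0.0142). Chuk, which encodes IKKα, had a log2 fold change of 0.61 (adjusted p = 0.0192, edgeR). It was between 73.6 and 88.3 CPM in PBS replicates 1, 2, 4 and 5 but at 126 CPM in PBS replicate 3, and between 92.0 and 142 CPM in DMM-treated kidneys. Without DMM replicate 4 its log2 fold change was 0.55, under 1.5-fold, and the list had 0 genes called higher. Over all 10 libraries the log2 fold change of Chuk was 0.39 (adjusted p = 0.433, edgeR), which was not called. Its call over the 8 libraries was also lost under library size alone. Ikbkb was not called over the 8 libraries, and the difference between the IKKα and IKKβ genes was not tested.

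Of 21 receptor adaptors and ubiquitin ligases, 4 were called lower and 0 higher over the 8 libraries by edgeR, with a median log2 fold change of -0.20. Traf1 fell by 0.90 on the log2 scale (adjusted p = 0.0211, edgeR), and Rnf31, the catalytic subunit of the linear ubiquitin ligase, by 0.74 (adjusted p = 0.00447). Myd88, the adaptor of Toll-like and interleukin-1 receptors, is named after its values were seen and was also among the 4, with a log2 fold change of -0.80. Among 16 negative regulators 2 were called lower, Trim30a at -2.23 (adjusted p = 0.00220, edgeR) and Socs1 at -2.44 (adjusted p = 0.0463), and 4 were called lower without DMM replicate 4. Over all 10 libraries Trim30a was at -1.45 (adjusted p = 0.385, edgeR) and Socs1 at -1.51 (adjusted p = 0.440), and neither was called. Under library size alone fewer genes of this list were called lower over the 8 libraries. The median log2 fold change of this list was -0.17 over 8 libraries and -0.09 over 7. Both genes are also known to be induced by interferons. Tnip3, a partner of A20, had a log2 fold change of -1.12 that was not called.

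Inflammatory targets formed the list with the lowest median, -0.73 over the 26 of 29 genes that were tested over the 8 libraries, where 4 were called lower and 0 higher by edgeR. The number called lower was 14 when DMM replicate 4 was left out, a step that raised the share called lower over all tested genes from 3.56% to 7.61%. Cxcl10, a chemokine induced by interferons as well as NF-κB, was between 113 and 200 CPM in PBS-treated kidneys and between 16.8 and 26.7 CPM in DMM replicates 2 to 5, with DMM replicate 1 at 138 CPM. Its log2 fold change was -2.86 over the 8 libraries (adjusted p = 0.000238, edgeR) and -1.70 over all 10 (adjusted p = 0.385). Csf1, the macrophage growth factor, fell by 1.02 (adjusted p = 0.00401, edgeR) and Cd40, a receptor of antigen-presenting cells, by 1.06 (adjusted p = 0.00808) on the log2 scale over the 8 libraries. Cd83, named after its values were seen, was the last of the 4.

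The classical cytokine targets Tnf, Il1b and Il6 were not called over the 8 libraries. Tnf was between 2.35 and 5.59 CPM with PBS and between 0.302 and 4.88 CPM with DMM over all 10 libraries, a log2 fold change of -0.62 (adjusted p = 0.627, edgeR). The lowest value was that of DMM replicate 4, and over 9 libraries without it the log2 fold change was -0.33. Within the set of 8, where the highest DMM value was 2.46 CPM, it was -1.13 (adjusted p = 0.254, edgeR), and -0.78 over 7 without DMM replicate 4. With PBS, Il1b was between 14.1 and 27.3 CPM in replicates 1, 2, 3 and 5 and at 51.4 CPM in replicate 4. It reached 29.5 CPM in DMM replicate 4, against 6.12 to 14.6 CPM in the other DMM-treated kidneys. Il6 was at 8.46 CPM in DMM replicate 4, the highest of the 10 libraries, against 0.567 to 1.54 CPM in the other DMM-treated kidneys. It was between 0.530 and 5.96 CPM with PBS. The log2 fold change of Il6 was 0.04 over 10 libraries (adjusted p = 0.988, edgeR) and turned to -1.28 over 9 without DMM replicate 4 (adjusted p = 0.354). Without DMM replicate 4 the log2 fold change of Il1b over 7 libraries was -1.99 (adjusted p = 0.00657, edgeR), which was called, against -1.16 (adjusted p = 0.289) with it. PBS replicate 4 remained in both fits.

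Of 15 survival and stress targets, 3 were called lower and 1 higher over the 8 libraries, with a median log2 fold change of 0.01. Irf1, a transcription factor that both interferons and NF-κB induce, fell by 1.39 on the log2 scale (adjusted p = 0.0115, edgeR), and Bcl2a1d by 1.53 (adjusted p = 0.0142). Bcl2a1b, named after its values were seen, was the last of the 3, and as Bcl2a1b and Bcl2a1d belong to a family of near-identical genes their counts are uncertain. Sod2, the mitochondrial superoxide dismutase, had a log2 fold change of 0.70 (adjusted p = 0.00820, edgeR) over the 8 libraries and was called higher. Over all 10 it had a log2 fold change of 0.40, with an adjusted p of 0.488 in edgeR, with PBS replicate 3 at 135 CPM, above DMM replicates 2 to 4 at 126 to 133 CPM, and DMM replicate 1 at 79.4 CPM. When DMM replicate 4 was left out, the list had 3 genes called higher and a median of 0.02.

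**Figure D3:**
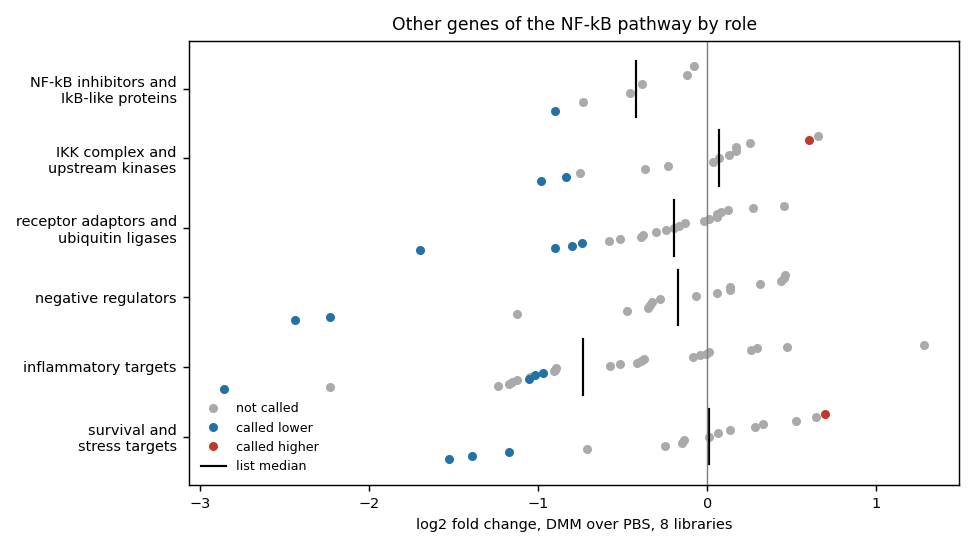
Log2 fold change of DMM over PBS over the 8 libraries for each tested gene of the 6 role lists, a point for each gene, blue where called lower, red where called higher and grey otherwise, with a black bar at the list median. The inflammatory targets have the lowest median, -0.73, and the called genes number 16 lower and 2 higher.

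Summed levels of some marker lists, and of the interferon response list, also set DMM replicates 2 to 5 apart from DMM replicate 1. The interferon response list, with 12 of 12 genes called lower over the 8 libraries, had a summed level of 4128, 2568, 2973, 4133 and 3983 CPM in PBS replicates 1 to 5, and 3184, 469, 424, 413 and 352 CPM in DMM replicates 1 to 5. Irf7 had the highest mean over the 10 libraries, although Ifit3, named after its values were seen, was above it with DMM, at a mean of 161 against 144 CPM, and Oasl1, with a log2 fold change of -3.46, and Ifit2, with -2.82, were among the genes of smallest p. DMM replicate 1 lay within the PBS range for this list, as it did for Relb and Nfkbie. Leukocyte markers, with 3 of 5 called lower over the 8 libraries, summed to 638, 582, 542, 621 and 686 CPM in PBS replicates 1 to 5, and to 565, 410, 298, 445 and 304 CPM in DMM replicates 1 to 5, with Laptm5 the most abundant in mean. Macrophage markers, with 2 of 8 called lower, were at 1547, 1446, 1231, 1477 and 1671 CPM with PBS and at 1338, 963, 809, 732 and 825 CPM with DMM. C1qb was the most abundant of them with PBS and over the mean of all libraries, and Csf1r, named after its values were seen, was above it in DMM replicates 2 to 5. T cell markers, with 2 of 9 called lower, were at 60.3, 62.9, 59.3, 51.9 and 89.5 CPM with PBS and at 57.5, 47.0, 19.2, 23.8 and 25.8 CPM with DMM, led by Cd4. In these 4 lists no marker was at 0 in any library. Proximal tubule markers, with 5 of 10 called higher, summed to 2178, 2249, 5197, 1001 and 1773 CPM with PBS and to 1659, 4231, 5257, 5374 and 5987 CPM with DMM. Lrp2 had the highest mean of these markers over the 10 libraries, through 2504 CPM in DMM replicate 4, and Slc34a1, named after its values were seen, was the higher of the pair with PBS, at a mean of 599.7 against 529 CPM. When DMM replicate 4 was left out, over the 7 libraries in which Rel was called, the markers called lower numbered 5 of 5 for leukocytes, 5 of 8 for macrophages, 4 of 9 for T cells and 12 of 12 for the interferon response, and 9 of 10 proximal tubule markers were called higher. Over all tested genes 7.61% were called lower and 6.71% higher over these 7 libraries, against 3.56% and 2.73% over the 8. PBS replicate 3, the lowest PBS-treated kidney for 8 of the 10 members, all but Rel and Ikbkb, had the highest proximal tubule level of its group. In bulk kidney RNA fewer cells of a type and less RNA per cell cannot be told apart, and the part of these cell types and of the interferon response in the values of the NF-κB genes was not tested.

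Among the remaining marker lists over the 8 libraries, 2 of 6 dendritic cell markers and 2 of 8 fibroblast markers were called lower, and 4 of 9 tested markers of the loop, distal tubule and collecting duct were called higher. Over the 7 libraries these counts were 4 of 6, 4 of 8 and 8 of 9. The shares over all tested genes were 3.56% lower and 2.73% higher over 8 libraries, and 7.61% and 6.71% over 7. Over the 8 libraries edgeR called 0 of 5 B cell, 0 of 5 tested neutrophil, 0 of 5 NK cell, 0 of 6 endothelial, 0 of 5 podocyte and 0 of 7 tubular injury markers, and 0 of 10 genes in common use as a reference. Over 7 libraries 1 B cell and 1 tubular injury marker were called lower and 1 of the reference genes higher. Neutrophil markers summed to 108 CPM in DMM replicate 4 and 114 CPM in PBS replicate 4, against 18.5 to 35.6 CPM in the other 8 libraries, and Ly6g had a count of 0 in 6 of the 10 libraries, these 2 kidneys included. Those 2 kidneys also held the highest Il1b and Il6 counts of their groups, and their part in these values was not tested.

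Members that are known targets of their own pathway can be read against their promoter sequence, taken from RefSeq (GRCm38.p6). The table holds 6 of the 10 members and not Relb, Nfkb1, Ikbkb or Nfkbiz. The 10-letter NF-κB consensus was searched by name on both strands in the 250 bases before each start. It was found in 4 of the 6, Rel, Nfkb2, Nfkbia and Tnfaip3, and not in Rela or Birc3, whereas 7.25% of 32851 promoters and 8.23% of 27025 genes held it. Nfkbia was not called, although its values separated the groups over 10 libraries, and Rel separated them and was called over 7. Stretches are shown for both and for Nfkb2 and Tnfaip3, which carry the same kind of match and were not called. Each is written 5′ to 3′ on the strand of its gene, with the matched letters in capitals. The Nfkbia stretch is chr12:55492652-55492691 (minus strand), and its match begins 29 bases before the start. The Rel stretch is chr11:23771036-23771076 (minus strand), with overlapping matches that begin 92 and 91 bases before the start. The Nfkb2 stretch is chr19:46304683-46304723 (plus strand), with overlapping matches 39 and 38 bases before the start. Nfkb2 has a further match 11 bases before this start and 1 match before each of its other starts in the table, 236 and 225 bases upstream, which are not printed. The Tnfaip3 stretches are chr10:19015511-19015550 and chr10:19015411-19015437 (minus strand), with matches 125 and 12 bases before the start, and the other Tnfaip3 start in the table has 0 matches. A match describes the letters and does not show that a factor is bound there.
Nfkbia: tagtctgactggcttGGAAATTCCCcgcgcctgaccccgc
Rel: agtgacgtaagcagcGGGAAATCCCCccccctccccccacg
Nfkb2: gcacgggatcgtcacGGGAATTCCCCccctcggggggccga
Tnfaip3, distal: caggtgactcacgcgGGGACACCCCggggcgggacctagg
Tnfaip3, proximal: actggaatttccatcGGAAATCCCCct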

How the data were processed

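Bulk RNA from 10 UUO kidneys, 5 PBS and 5 DMM, was analysed from the table that the authors deposited. The authors aligned reads to the mouse genome mm10, with HISAT2 2.0.5 per the submitters' processing notes, and deposited unnormalized counts per gene. The counting tool, annotation release and use of strand are not given in the sources used here. FPKM values from the authors, which relate each count to gene length and to an effective size of the library, served only for levels between genes. The gene length that the authors deposited, in base pairs, is of unstated origin. The group means that the authors deposited, a signal in counts divided by size factors, were used only to find the libraries they hold. The log2 fold change and p-value columns that the authors deposited, from DESeq2 with default parameters, were not used.

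Counts were filtered by filterByExpr, scaled by TMM and tested by edgeR 4.0.16 (R 4.3.3), with Benjamini-Hochberg adjustment over 16505 genes for 10 libraries and 16550 for 8. Alternatives were DESeq2 1.42.0, library size alone, RLE size factors, other filters on low counts, the replicate number as a block and each library left out in turn. Steps were tested on simulated counts. Leaving out DMM replicate 4 from lists was chosen after seeing the data. Members and lists were chosen with earlier results of these data known. Named genes are the members, the 3 genes of smallest p over 8 libraries in each pathway list and in the interferon list, Tnf, Il1b and Il6, the 2 genes most like each member, and the most abundant gene of a marker list. Values of 2 genes that this rule names are not reported here, though counts, sums and medians of lists include them. Gene types, positions and symbols come from the deposited table, in which Nfkb2 overlaps Psd by 4 bases on the other strand. Reads carry no stated molecular identifiers and are not independent molecules.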

Additional observations from a re-analysis of the deposited data

Results flagged for a closer look

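Nfkbia in PBS-treated kidneys had a library far from the others. PBS replicate 5, at 103 CPM, was separated from the next highest kidney by 0.735 of the range of the group in log2 CPM. This was above Dixon's critical value of 0.71 for 5 libraries. Of 20 groups tested, the 10 members in PBS and in DMM, 1 was past that value, and chance gives about 1 in 20. Without PBS replicate 5 the log2 fold change of Nfkbia was -0.30 over the remaining 9 libraries and -0.36 within the set of 8.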

How the results depend on the processing

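All 10 members stayed uncalled over 10 libraries under each alternative, while the count of genes called, 0 in edgeR, was 13 higher and 36 lower in DESeq2 and 452 higher and 590 lower over the 8 libraries. Leaving out each library in turn gave 0 to 50 genes higher and 0 to 436 lower over 10 libraries, with the upper counts without DMM replicate 1. Over 8 libraries it gave 131 (without PBS replicate 5) to 1129 (without DMM replicate 4) higher and 276 to 1281 lower, and 0 to 1 member called lower. Each of the 8 libraries but DMM replicate 2 moved the count called higher by over 1.5 times when left out. Over 8 libraries DESeq2 called 710 genes higher, and library size alone gave 276 higher and 700 lower calls. With library size alone the median log2 fold change of all genes moved from 0.02 to -0.06 over 10 libraries and to -0.09 over 8. Ikbkb and Birc3 then turned to -0.043 and -0.023 over 10 libraries and to -0.10 and -0.11 over 8. List medians became -0.24 for adaptors and ligases and -0.048 for survival targets over 10 libraries. Over 8 libraries they became -0.51 for inhibitors, -0.050 for IKK and kinases, -0.29 for adaptors and ligases, -0.28 for negative regulators and -0.087 for survival targets, with 0 IKK genes called higher and 1 negative regulator lower. Without a filter on low counts Ikbkb and Birc3 were at -0.0091 and -0.0087 over 8 libraries. Deviations of same-numbered libraries from their group means had correlations of -0.06, 0.08, 0.34, 0.12 and -0.22. With 5 numbers, and DMM replicate 4 far from its group, these values cannot settle whether the numbers pair samples. The main fits took the libraries as unpaired. With the replicate number as a block, 0 genes were called higher and 0 lower over the 8 libraries, of which 6 could be used, and Ikbkb and Birc3 were at -0.0010 and -0.059. With a library left out, over 10 libraries Tnfaip3 ran from -0.28 to 0.0012, Nfkb2 from -0.21 to 0.037 and Birc3 from -0.011 to 0.18, and over 8 libraries Ikbkb ran from -0.047 to 0.044 and Birc3 from -0.094 to 0.13. Without DMM replicate 4, called genes over 7 libraries were 0 higher for IKK and kinases, 4 lower for negative regulators, 14 lower for inflammatory targets and 3 higher for survival targets. The cause of these shifts was not tested. With 5 mice a group and the spread of DMM replicate 4, intervals such as -0.16 to 0.25 for Ikbkb limit what could be seen.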
